A study of Mus musculus with 10 samples.

Results

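The antiviral interferon-stimulated effector genes described here are 41 mouse genes, chosen by name, that interferon induces and whose products act against viruses or tune the response to them. They were chosen with earlier results of these data known. A gene was read from its probe set with exactly 1 gene symbol and the highest mean over the 10 arrays. Of the 41 genes, 36 had such a probe set, and all 36 passed the filter on low values, among 13371 genes that did. The other 5 were dropped: the probe sets of Oas1a, Parp10, Dtx3l and Ifi27l2a carried the symbol of another gene as well, and Ifi44 was not found among the named probe sets. Of the 36, 35 lay above the array median in all 10 arrays and Ifit2 did so in 9.

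Type I interferons are secreted when a cell senses foreign nucleic acid. They bind the receptor Ifnar1 and Ifnar2, whose kinases Jak1 and Tyk2 activate transcription factors, Stat2 and Irf9 among them, that bind the interferon-stimulated response element (ISRE) in promoters. The genes switched on in this way include sensors, inhibitors of viral translation, nucleotide-modifying enzymes and membrane proteins that hold virus particles. Dendritic cells (DCs), which present antigen to T cells, take up unmethylated CpG DNA and recognise it through Tlr9, which signals through Myd88.

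RNA was measured in CD11c+ splenic DCs with Affymetrix Mouse Gene 2.0 ST arrays, 1 array per sample. The donors were wild-type (WT) mice and C3ar1-/-C5ar1-/- animals (written DRKO as in the labels), which lack both receptors for the complement fragments C3a and C5a. Mice had been injected with 100 µg CpG or with vehicle 4 h before magnetic-bead isolation of the CD11c+ cells. The arrays were 2 of WT unstimulated cells, 3 of WT cells after CpG, 2 of DRKO unstimulated cells and 3 of DRKO cells after CpG. The labels used here give no strain, sex or age and do not say whether a sample was 1 mouse or a pool, so p-values measure the spread between these samples, which may be technical. Bead isolation leaves other CD11c-bearing or adhering cells in the isolate, and in such a mixed sample fewer cells of a type and less RNA per cell cannot be told apart. Levels below are log2 intensities as deposited, changes are differences of log2 group means, values after ± are standard errors of a change from limma, and a gene was called at a Benjamini-Hochberg adjusted p under 0.05 over the 13371 genes.

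Array medians lay between 5.50 and 5.56. The conventional DC marker H2-Aa, an MHC class II chain, measured 12.86 to 13.13, and Itgax, which encodes CD11c, measured 10.72 to 11.89. The deleted gene C3ar1 measured 5.27 to 5.64 in DRKO cells and 5.80 to 6.59 in WT cells, and C5ar1 4.42 to 4.99 and 5.51 to 7.32, so the genotypes did not overlap in either gene, and where the probes lie relative to the deleted parts was not checked. The sample titles fall into 2 number series: 7 arrays are numbered under 20, and 3 (WT CpG 3, DRKO unstimulated 2 and DRKO CpG 3) are numbered 20 or over. The mean of 3 Y-linked genes was 7.33 to 7.93 in DRKO unstimulated 1, DRKO CpG 1 and DRKO CpG 2 and 3.21 to 3.68 in the other arrays. The mean of 11 neutrophil markers was 7.21 to 9.06 in WT cells and 5.52 to 7.27 in DRKO cells, so RNA of these cells moved with genotype. The mean of 12 splenic macrophage markers was 8.44 to 8.46 in DRKO unstimulated 2 and DRKO CpG 3 and 9.97 to 10.28 in the other arrays. One array stood apart for the antiviral genes: DRKO CpG 2 was the lowest of the 3 DRKO CpG arrays for 35 of the 36. Several results that rest on it are therefore given with and without it. Because it was singled out on the values of these same genes, changes and counts without it are descriptions and not independent tests.

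Most of the antiviral genes were called higher 4 h after CpG, in WT and in DRKO cells. In WT cells 31 of the 36 were called higher and 0 lower, where 8.24% of all tested genes were called higher and 13.3% lower. Their median change was 1.92 on the log2 scale, 3.79-fold, beside -0.04 over all tested genes. In 34 of the 36 every CpG array lay above both unstimulated arrays, as in 21.2% of all genes. In DRKO cells 24 of the 36 were called higher and 0 lower, where 4.54% of all genes were called higher and 5.76% lower. The median change was 1.33, 2.51-fold, and in 29 genes the groups did not overlap, as in 15.2% of all genes. All 24 genes called in DRKO cells were also called in WT cells. The 7 called in WT cells alone were Isg20, Ifi35, Herc6, Ddx60, Sp100, Pml and Ifitm3, and Ifit3, Bst2, Trim21, Trim25 and Samhd1 were called in neither. The difference between the genotypes' CpG changes passed the threshold in 0 of the 36, so the 7 are not shown to differ between genotypes.

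**Figure D1:**
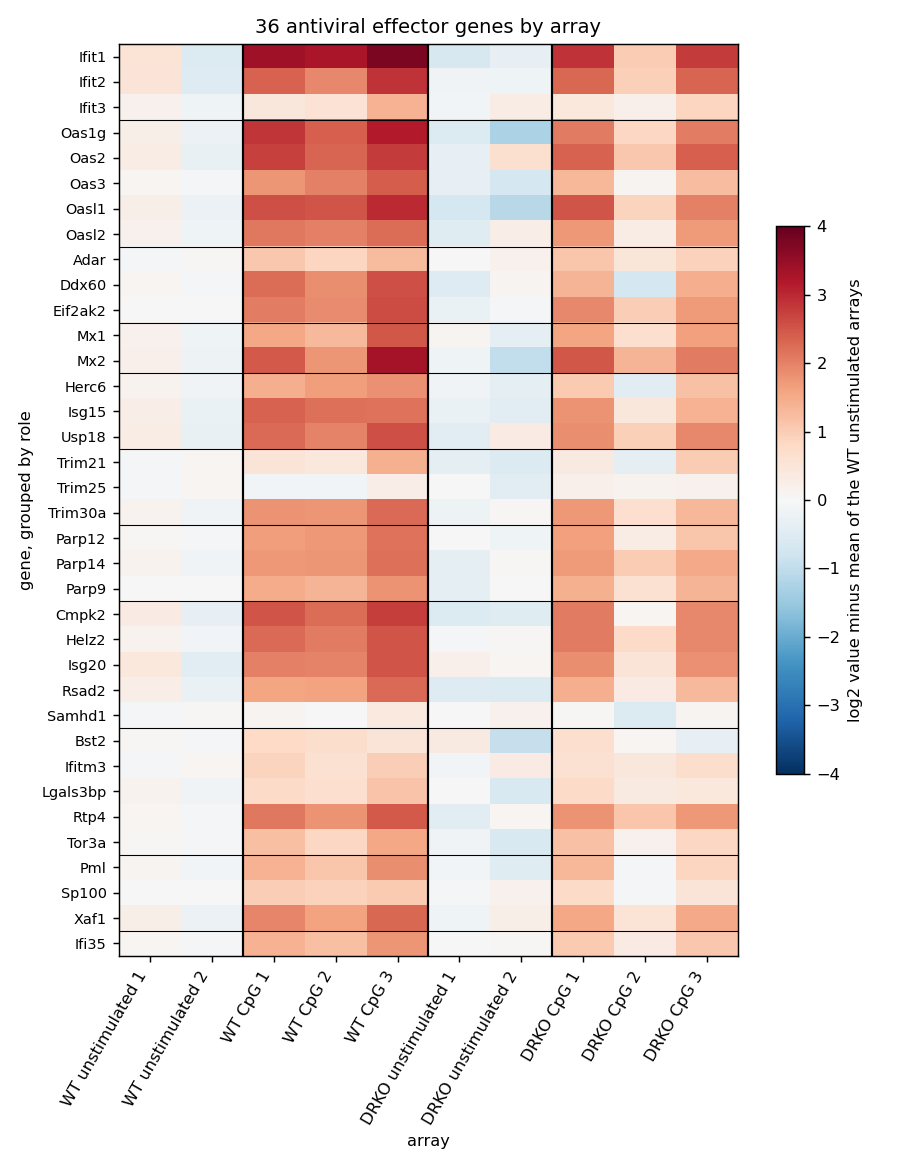
Each row is a gene and each column an array, and colour gives the log2 value minus the mean of the 2 WT unstimulated arrays, from blue (lower) to red (higher). The 3 WT CpG columns are red in most rows, and DRKO CpG 2 is the palest of the 6 CpG columns.

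The count in DRKO cells depended on the fit more than the count in WT cells. Shares over all genes are not given for these fits, so this is not shown to be particular to the antiviral genes. Leaving out an unstimulated array leaves a single one in its group, and the arrays titled under 20 hold a single DRKO unstimulated array. The WT count was 23 to 33 under every alternative tried, with the lowest, 23 and 26, reached by leaving out WT unstimulated 2 or WT unstimulated 1. The DRKO count was 30 without DRKO CpG 2, 13 without DRKO CpG 1, 8 without DRKO unstimulated 2 and 7 without DRKO unstimulated 1. It was 11 in the arrays titled under 20 and 8 when the 2 DRKO groups alone set the spread.

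Promoter sequences were available for 31 of the 41 genes, in windows of 250 bases before and 50 after a transcription start. The ISRE was searched on both strands as GAAA followed, after 2 bases, by a further GAAA. It was found in the upstream bases of 10 of the 31 genes (32.3%), against 3.46% of 27025 genes and 2.98% of 32851 promoter windows. In the whole window it was found in 13 genes. The interferon gamma-activated site, TTCNNNGAA, was found upstream in 6 genes (Bst2, Eif2ak2, Ifit2, Isg20, Oas1a and Samhd1), against 8.13% of all genes. A kappa B site, GGGA with TTCC after 2 bases, was found in 3 (Ifit2, Ifitm3 and Isg20), against 1.36%. Bst2 and Oas1a held both an ISRE and TTCNNNGAA, and Ifit2 and Isg20 both TTCNNNGAA and a kappa B site. A match describes letters, not binding.

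The upstream stretches of the 9 measured genes with an ISRE are shown because these genes span the strongest and some of the weakest responses. They are RefSeq sequence of build GRCm38.p6, written along the strand of the gene with the start site to the right, and capitals mark the ISRE matches.
Ifit1: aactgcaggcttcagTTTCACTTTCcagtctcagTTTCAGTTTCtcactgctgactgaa
Ifit3: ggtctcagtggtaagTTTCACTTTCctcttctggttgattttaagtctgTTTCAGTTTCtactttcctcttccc
Isg15: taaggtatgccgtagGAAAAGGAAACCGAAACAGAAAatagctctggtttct
Oas1g: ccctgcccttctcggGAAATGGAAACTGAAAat
Oas3: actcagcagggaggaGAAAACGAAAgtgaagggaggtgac
Ddx60: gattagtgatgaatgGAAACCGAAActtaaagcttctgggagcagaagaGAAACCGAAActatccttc
Rsad2: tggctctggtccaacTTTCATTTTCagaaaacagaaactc
Bst2: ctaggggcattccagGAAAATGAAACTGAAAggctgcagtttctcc
Trim30a: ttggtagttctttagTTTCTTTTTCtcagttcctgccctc

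The stretches lie at chr19:34640770-34640828 (plus strand) for Ifit1, chr19:34583358-34583431 (plus) for Ifit3 and chr8:61928019-61928086 (plus) for Ddx60. On the minus strand lie those of Isg15 at chr4:156200860-156200911, Oas1g at chr5:120887614-120887646, Oas3 at chr5:120777710-120777749, Rsad2 at chr12:26456548-26456587, Bst2 at chr8:71537572-71537617 and Trim30a at chr7:104465205-104465244. For Trim30a 1 of its 2 listed starts has the match. Isg15 held 3 overlapping matches, and Ifit1, Ifit3, Oas1g, Ddx60 and Bst2 held 2 each. In Ifit1, Ifit3, Rsad2 and Trim30a the match reads TTTC on the strand shown, and in the other 5 it reads GAAA. The matches of Oas1g lay 3 to 18 bases before the start and those of Ifit3 113 to 156 bases before it. The 9 measured genes with an upstream ISRE had a median WT change of 2.07 (range 0.67 to 3.47), and the 19 measured genes with a promoter window but no upstream match had 1.65 (range 0.01 to 2.69). Both classes thus held strong and weak responders. Bst2 and Ifit3 carry matches and were not called, though both passed in WT cells under some alternatives. Oasl1 has no match in the upstream window and was among the highest.

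The Ifit genes encode tetratricopeptide proteins that bind viral RNA ends and block translation. Ifit1 had the largest change of the 36 genes in WT cells. Levels of Ifit1 in WT cells were 7.77 and 6.67 without stimulation and 10.60, 10.48 and 10.99 after CpG, and in DRKO cells 6.58 and 6.90 and then 10.11, 8.24 and 10.02. Every CpG array lay above every unstimulated array of its genotype, and DRKO CpG 2 was well below the other DRKO CpG arrays. The change was 3.47 ± 0.50 in WT cells (11.1-fold, adjusted p = 0.000902) and 2.71 ± 0.50 in DRKO cells (6.57-fold, adjusted p = 0.00853). Ifit2 changed by 2.40 ± 0.43 in WT cells (adjusted p = 0.00322) and by 2.02 ± 0.43 in DRKO cells (adjusted p = 0.0158). Ifit3, a partner of Ifit1 in RNA binding, had the smallest change in the family. Ifit3 went from 6.88 and 6.56 without stimulation to 7.17, 7.30 and 8.12 after CpG in WT cells, and from 6.60 and 7.01 to 7.13, 6.93 and 7.58 in DRKO cells. In WT cells the groups did not overlap, but the change of 0.81 ± 0.28 had an adjusted p of 0.0668, and the DRKO change of 0.41 ± 0.28 had 0.419. Ifit3 passed in WT cells with quantile normalization and with the title series as a block.

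The Oas genes encode enzymes that make the oligoadenylate messengers that activate RNase L on contact with double-stranded RNA. The Oasl proteins are relatives, of which mouse Oasl1 is known as a translational inhibitor of Irf7. All 5 measured members of the family were called higher in both genotypes. Oas1g measured 7.56 and 7.11 in the WT unstimulated arrays, 10.18, 9.74 and 10.51 in the WT CpG arrays, 6.78 and 6.06 in the DRKO unstimulated arrays and 9.42, 8.18 and 9.37 in the DRKO CpG arrays. The CpG and unstimulated arrays were well apart in each genotype. Its change was 2.81 ± 0.38 in WT cells (adjusted p = 0.000636) and 2.57 ± 0.38 in DRKO cells (adjusted p = 0.00284). Oas1g was also the only one of the 36 with an unadjusted p under 0.05 between the unstimulated groups, where both DRKO arrays lay below both WT arrays by a mean of 0.91 ± 0.41 (adjusted p = 0.992).

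Oasl1 had the smallest p of the family in DRKO cells. Levels of Oasl1 in WT cells were 7.78 and 7.29 without stimulation and 10.12, 10.04 and 10.52 after CpG, and in DRKO cells 6.84 and 6.42 and then 10.05, 8.44 and 9.55. Its changes were close in size in both genotypes, 2.69 ± 0.38 in WT cells (adjusted p = 0.00084) and 2.71 ± 0.38 in DRKO cells (adjusted p = 0.00237), and both DRKO unstimulated arrays lay below the WT ones. The changes of Oas2 were further apart: its levels were 8.82 and 8.20 in the WT unstimulated arrays, 11.23, 10.84 and 11.30 after CpG, 8.18 and 9.17 in the DRKO unstimulated arrays and 10.87, 9.59 and 10.89 after CpG. The change was 2.61 ± 0.40 in WT cells (adjusted p = 0.00129) and 1.77 ± 0.40 in DRKO cells (adjusted p = 0.0208), and DRKO unstimulated 2 lay above both WT unstimulated arrays. Oasl2 measured 8.09 and 7.76 in the WT unstimulated arrays, 10.03, 9.95 and 10.17 in the WT CpG arrays, 7.45 and 8.19 in the DRKO unstimulated arrays and 9.65, 8.21 and 9.62 in the DRKO CpG arrays. Oasl2, which carries ubiquitin-like domains, had the largest p of the family in WT cells, with changes of 2.13 ± 0.38 (adjusted p = 0.00318) and 1.34 ± 0.38 (adjusted p = 0.0497). Oas3, the member that prefers long double-stranded RNA, changed by 2.07 ± 0.33 in WT cells (adjusted p = 0.00154) and 1.40 ± 0.33 in DRKO cells (adjusted p = 0.0241).

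Of the other proteins that bind double-stranded RNA, the kinase Eif2ak2 (PKR) halts translation, the editing enzyme Adar converts adenosine to inosine, and Ddx60 is a helicase-like factor. Levels of Eif2ak2 in WT cells were 6.40 and 6.42 without stimulation and 8.46, 8.30 and 9.02 after CpG, and in DRKO cells 6.15 and 6.36 and then 8.33, 7.38 and 8.11. Eif2ak2 rose in both genotypes with no overlap, by 2.18 ± 0.27 (adjusted p = 0.000407) in WT cells and 1.68 ± 0.27 (adjusted p = 0.00445) in DRKO cells. Adar rose by 1.07 ± 0.19 (adjusted p = 0.00268) and 0.75 ± 0.19 (adjusted p = 0.0287). Ddx60 had the lowest difference between the CpG changes of the 36 genes. Ddx60 went from 7.33 and 7.17 without stimulation to 9.47, 9.10 and 9.83 after CpG in WT cells, and from 6.74 and 7.35 to 8.62, 6.54 and 8.71 in DRKO cells. DRKO CpG 2 lay below both DRKO unstimulated arrays while DRKO CpG 1 and 3 lay above them. The change was 2.22 ± 0.53 in WT cells (adjusted p = 0.0141) and 0.91 ± 0.53 in DRKO cells (adjusted p = 0.332). Without DRKO CpG 2, singled out for its low values of these genes, the DRKO change was 1.62.

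The Mx proteins are dynamin-like GTPases that trap viral components. Mx2 measured 6.73 and 6.31 in the WT unstimulated arrays, 8.97, 8.27 and 9.86 in the WT CpG arrays, 6.35 and 5.54 in the DRKO unstimulated arrays and 8.995, 7.88 and 8.60 in the DRKO CpG arrays. Mx2 rose by 2.51 ± 0.44 in WT cells (adjusted p = 0.0028) and 2.55 ± 0.44 in DRKO cells (adjusted p = 0.00648), and WT CpG 3 was the highest of the 6 CpG arrays. Levels of Mx1 in WT cells were 6.55 and 6.21 without stimulation and 7.94, 7.66 and 8.86 after CpG, and in DRKO cells 6.50 and 6.03 and then 7.95, 7.06 and 8.02. Mx1 rose by 1.78 ± 0.36 (adjusted p = 0.00613) and 1.41 ± 0.36 (adjusted p = 0.0346), and in both Mx genes the CpG arrays of the genotypes overlapped.

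Isg15 is a ubiquitin-like protein that is attached to other proteins, Herc6 is its main ligase in the mouse, and Usp18 removes it and also restrains the interferon receptor. Isg15 went from 9.68 and 9.15 without stimulation to 11.77, 11.61 and 11.58 after CpG in WT cells, and from 9.13 and 8.96 to 11.22, 9.85 and 10.80 in DRKO cells. All 3 DRKO CpG arrays lay below all 3 WT CpG arrays. Isg15 rose by 2.24 ± 0.32 in WT cells (4.73-fold, adjusted p = 0.000855) and 1.57 ± 0.32 in DRKO cells (2.98-fold, adjusted p = 0.0129). Usp18 measured 9.26 and 8.65 in the WT unstimulated arrays, 11.20, 10.95 and 11.54 in the WT CpG arrays, 8.50 and 9.27 in the DRKO unstimulated arrays and 10.82, 9.92 and 10.87 in the DRKO CpG arrays. Usp18 rose by 2.28 ± 0.33 (adjusted p = 0.000902) and 1.65 ± 0.33 (adjusted p = 0.012). Levels of Herc6 in WT cells were 9.01 and 8.70 without stimulation and 10.30, 10.53 and 10.69 after CpG, and in DRKO cells 8.71 and 8.49 and then 9.88, 8.39 and 10.03. DRKO CpG 2 again fell below the DRKO unstimulated arrays. Herc6 rose by 1.65 ± 0.39 in WT cells (adjusted p = 0.0127), and its DRKO change of 0.83 ± 0.39 had an adjusted p of 0.215. Without DRKO CpG 2 the DRKO change of Herc6 was 1.36.

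Trim proteins are ubiquitin ligases, and 1 of the 3 here was called in each genotype. Trim25 went from 9.56 and 9.70 without stimulation to 9.52, 9.51 and 9.89 after CpG in WT cells, and from 9.60 and 9.19 to 9.83, 9.77 and 9.80 in DRKO cells. Trim25, which activates the RNA sensor encoded by Ddx58, had a WT change of 0.01 ± 0.16 (adjusted p = 0.973) and had a DRKO change of 0.40 ± 0.16 (adjusted p = 0.141), the highest difference of the 36. Trim21, a cytosolic antibody receptor, had changes of 0.78 ± 0.37 (adjusted p = 0.178) and 0.80 ± 0.37 (adjusted p = 0.213). Trim30a measured 8.02 and 7.73 in the WT unstimulated arrays, 9.68, 9.65 and 10.14 in the WT CpG arrays, 7.67 and 7.94 in the DRKO unstimulated arrays and 9.60, 8.55 and 9.22 in the DRKO CpG arrays. Trim30a, a mouse gene known to damp Toll-like receptor signalling, rose by 1.95 ± 0.27 (adjusted p = 0.000761) and 1.32 ± 0.27 (adjusted p = 0.0135).

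The Parp proteins transfer ADP-ribose, and all 3 measured members were called higher in both genotypes. Levels of Parp14 in WT cells were 9.10 and 8.83 without stimulation and 10.68, 10.73 and 11.16 after CpG, and in DRKO cells 8.60 and 9.02 and then 10.66, 9.99 and 10.48. Parp14 had the smallest p of the 36 genes in WT cells, with a change of 1.90 ± 0.22 (adjusted p = 0.000321), and rose by 1.57 ± 0.22 in DRKO cells (adjusted p = 0.00257). Parp9, whose gene neighbours Dtx3l and Parp14 on chromosome 16, rose by 1.55 ± 0.23 (adjusted p = 0.00119) and 1.34 ± 0.23 (adjusted p = 0.00679). Parp12 went from 9.24 and 9.15 without stimulation to 10.88, 10.94 and 11.35 after CpG in WT cells, and from 9.21 and 9.03 to 10.83, 9.50 and 10.31 in DRKO cells. Parp12 rose by 1.86 ± 0.30 (adjusted p = 0.00188) and 1.09 ± 0.30 (adjusted p = 0.0462), and DRKO CpG 2 lay closer to the unstimulated arrays than to DRKO CpG 1.

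Among the enzymes of nucleotides and nucleic acids, Helz2 is a helicase and nuclear receptor coactivator, Isg20 an RNA exonuclease, Rsad2 (viperin) makes a chain-terminating nucleotide, and Cmpk2 is a nucleotide kinase of mitochondria. Helz2 measured 8.31 and 8.06 in the WT unstimulated arrays, 10.44, 10.26 and 10.70 in the WT CpG arrays, 8.12 and 8.23 in the DRKO unstimulated arrays and 10.25, 8.96 and 10.12 in the DRKO CpG arrays. Helz2 rose by 2.28 ± 0.32 (adjusted p = 0.000761) and 1.60 ± 0.32 (adjusted p = 0.0118). Levels of Isg20 in WT cells were 8.03 and 7.16 without stimulation and 9.60, 9.58 and 10.10 after CpG, and in DRKO cells 7.81 and 7.66 and then 9.45, 8.12 and 9.42. Isg20 rose by 2.17 ± 0.38 in WT cells (adjusted p = 0.00299), and its DRKO change of 1.26 ± 0.38 missed the threshold (adjusted p = 0.0633). Rsad2 and Cmpk2 are neighbours on chromosome 12. Rsad2 rose by 1.81 ± 0.32 (adjusted p = 0.0031) and 1.55 ± 0.32 (adjusted p = 0.0143), and Cmpk2 by 2.51 ± 0.48 (adjusted p = 0.00476) and 1.88 ± 0.48 (adjusted p = 0.0347). Samhd1, which degrades deoxynucleotides, was not called. Samhd1 went from 11.31 and 11.39 without stimulation to 11.45, 11.37 and 11.75 after CpG in WT cells, and from 11.37 and 11.54 to 11.41, 10.80 and 11.46 in DRKO cells. Its levels were high in every array, with changes of 0.17 ± 0.20 (adjusted p = 0.619) and -0.23 ± 0.20 (adjusted p = 0.533).

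The membrane and secreted products were led by Rtp4, a chaperone of receptor transport. Rtp4 measured 8.40 and 8.23 in the WT unstimulated arrays, 10.42, 10.10 and 10.77 in the WT CpG arrays, 7.86 and 8.41 in the DRKO unstimulated arrays and 10.11, 9.43 and 10.05 in the DRKO CpG arrays. Rtp4 rose by 2.11 ± 0.25 (adjusted p = 0.000324) and 1.73 ± 0.25 (adjusted p = 0.00282). Bst2 (tetherin), which holds budding virus at the cell surface and also marks plasmacytoid DCs, was not called. Levels of Bst2 in WT cells were 10.64 and 10.56 without stimulation and 11.39, 11.31 and 11.11 after CpG, and in DRKO cells 10.95 and 9.69 and then 11.26, 10.67 and 10.28. Both arrays of DRKO cells titled 20 or over, DRKO unstimulated 2 and DRKO CpG 3, were the lowest of their groups, and the changes were 0.67 ± 0.34 (adjusted p = 0.204) and 0.41 ± 0.34 (adjusted p = 0.518). Ifitm3, which blocks viral entry from endosomes, rose by 0.82 ± 0.16 in WT cells (adjusted p = 0.00559) and had a DRKO change of 0.48 ± 0.16 (adjusted p = 0.0897). The endoplasmic reticulum ATPase Tor3a rose by 1.19 ± 0.28 (adjusted p = 0.0131) and 1.09 ± 0.28 (adjusted p = 0.0347). The secreted glycoprotein Lgals3bp rose by 0.86 ± 0.21 (adjusted p = 0.0154) and 0.83 ± 0.21 (adjusted p = 0.0328).

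Pml and Sp100 build the nuclear bodies that silence viral genomes, and Xaf1 promotes apoptosis. Xaf1 went from 7.50 and 7.06 without stimulation to 9.24, 8.88 and 9.57 after CpG in WT cells, and from 7.10 and 7.51 to 8.83, 7.82 and 8.78 in DRKO cells. Xaf1 rose by 1.95 ± 0.31 (adjusted p = 0.00151) and 1.17 ± 0.31 (adjusted p = 0.0374). Pml measured 9.16 and 8.95 in the WT unstimulated arrays, 10.44, 10.17 and 10.92 in the WT CpG arrays, 8.96 and 8.56 in the DRKO unstimulated arrays and 10.38, 8.97 and 9.93 in the DRKO CpG arrays. Pml rose by 1.45 ± 0.35 in WT cells (adjusted p = 0.0143) and had a DRKO change of 1.002 ± 0.35 (adjusted p = 0.1), and DRKO CpG 2 lay level with DRKO unstimulated 1. Sp100 rose by 0.98 ± 0.20 in WT cells (adjusted p = 0.00654) and had a DRKO change of 0.36 ± 0.20 (adjusted p = 0.307). Levels of Ifi35 in WT cells were 9.28 and 9.10 without stimulation and 10.58, 10.39 and 10.97 after CpG, and in DRKO cells 9.21 and 9.23 and then 10.23, 9.50 and 10.26. Ifi35, an interferon-induced leucine zipper protein, rose by 1.46 ± 0.23 in WT cells (adjusted p = 0.00159), and its DRKO change of 0.78 ± 0.23 had an adjusted p of 0.0586.

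The spread among the 36 genes was wide in both genotypes. Of the 31 called in WT cells, 16 rose at least 4-fold, 12 rose 2-fold to under 4-fold and 3 rose less, from 0.82 to 3.47 on the log2 scale. Of the 24 called in DRKO cells, 5 rose at least 4-fold (Ifit1, Ifit2, Oas1g, Oasl1 and Mx2), 17 rose 2-fold to under 4-fold and 2 rose less. The DRKO change was smaller than the WT change in 32 of the 36, with a median ratio of 0.70, and across the 36 genes the changes of the genotypes correlated at r = 0.90. This correlation is a description over genes that share the same arrays.

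**Figure D2:**
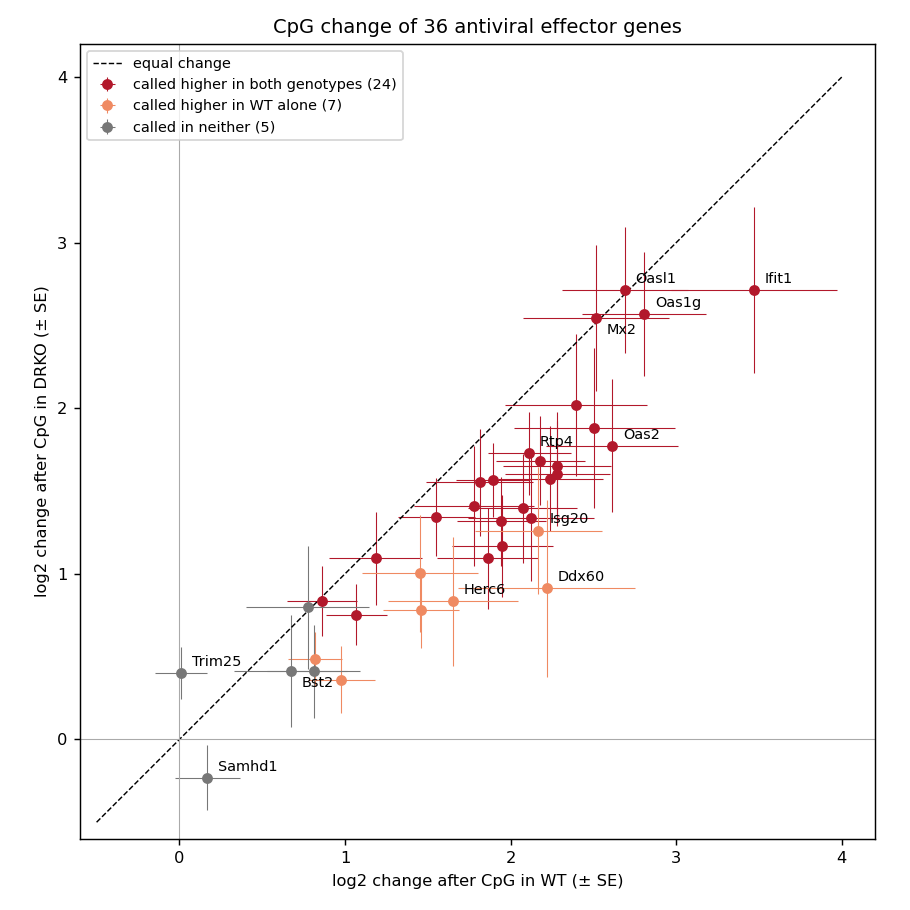
Each point is 1 of the 36 genes, with its log2 CpG change in WT cells on the x axis and in DRKO cells on the y axis, bars giving ± 1 standard error. Most points lie below the dashed line of equal change, Oasl1 and Mx2 lie on it, and Trim25 lies above it.

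Without stimulation no antiviral gene was called between the genotypes. Of the 36, 0 passed between DRKO and WT unstimulated cells by limma, where 0.00748% of all genes were called in either direction. The median difference of DRKO minus WT was -0.17, and 1 gene, Oas1g, had an unadjusted p under 0.05, where 2.54% of all genes had one and were lower in DRKO cells. In 10 of the 36 both DRKO arrays lay below both WT arrays, beside 15.9% of all genes. Each group here had 2 arrays. With the neutrophil marker mean, which itself moved with genotype, as a covariate the median difference was -0.53.

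After CpG nearly every antiviral gene had a lower mean in DRKO cells, and no single gene passed the threshold. The median difference of DRKO minus WT was -0.66, beside 0.01 over all tested genes, and 35 of the 36 were below 0, Trim25 being the exception. By limma 0 of the 36 were called, where 0.12% of all genes were called in either direction. Of the 36, 22 had an unadjusted p under 0.05, all lower in DRKO cells, against 5.83% of all genes. The 36 genes share the same arrays, DRKO CpG 2 among them, and the count of 22 was not computed without that array. In 18 genes all 3 DRKO CpG arrays lay below all 3 WT CpG arrays, against 7.58% of all genes. Oas3 had the smallest p, with values of 8.79, 9.03 and 9.44 in the WT CpG arrays and 8.33, 7.10 and 8.24 in the DRKO CpG arrays, a difference of -1.19 ± 0.29 (adjusted p = 0.102). Ddx60 had the largest difference, -1.51 ± 0.48 (adjusted p = 0.188), followed by Ifit1 with -1.24 ± 0.45 (adjusted p = 0.245). The difference was -1.03 ± 0.28 for Isg15 (adjusted p = 0.137), -1.15 ± 0.43 for Cmpk2 (adjusted p = 0.263) and -1.15 ± 0.34 for Oas1g (adjusted p = 0.158). At the other end it was -0.22 ± 0.17 for Adar (adjusted p = 0.605) and -0.22 ± 0.15 for Ifitm3 (adjusted p = 0.537).

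Leaving out DRKO CpG 2 made the difference smaller and kept its direction. Without that array the median was -0.35 and 35 of the 36 genes were still lower in DRKO cells, with 0 called and a lowest adjusted p of 0.235. DRKO CpG 1 and 3 both lay below all WT CpG arrays in 18 genes, against 10.8% of all genes. Ddx60 went from -1.51 ± 0.48 to -0.80, Ifit1 to -0.63 and Oas3 to -0.80. Within the arrays titled under 20, which include DRKO CpG 2, the median of DRKO minus WT was -0.61 and 35 genes were lower. All DRKO arrays of that series carry Y-linked signal. Taken from the WT unstimulated mean, the median of the 36 genes was 1.56 in DRKO CpG 1 and 0.45 in DRKO CpG 2. It was 1.75 in both WT CpG 1 and WT CpG 2. Between the single DRKO and WT CpG arrays titled 20 or over the median of DRKO minus WT was -0.71 and all 36 were lower.

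**Figure D3:**
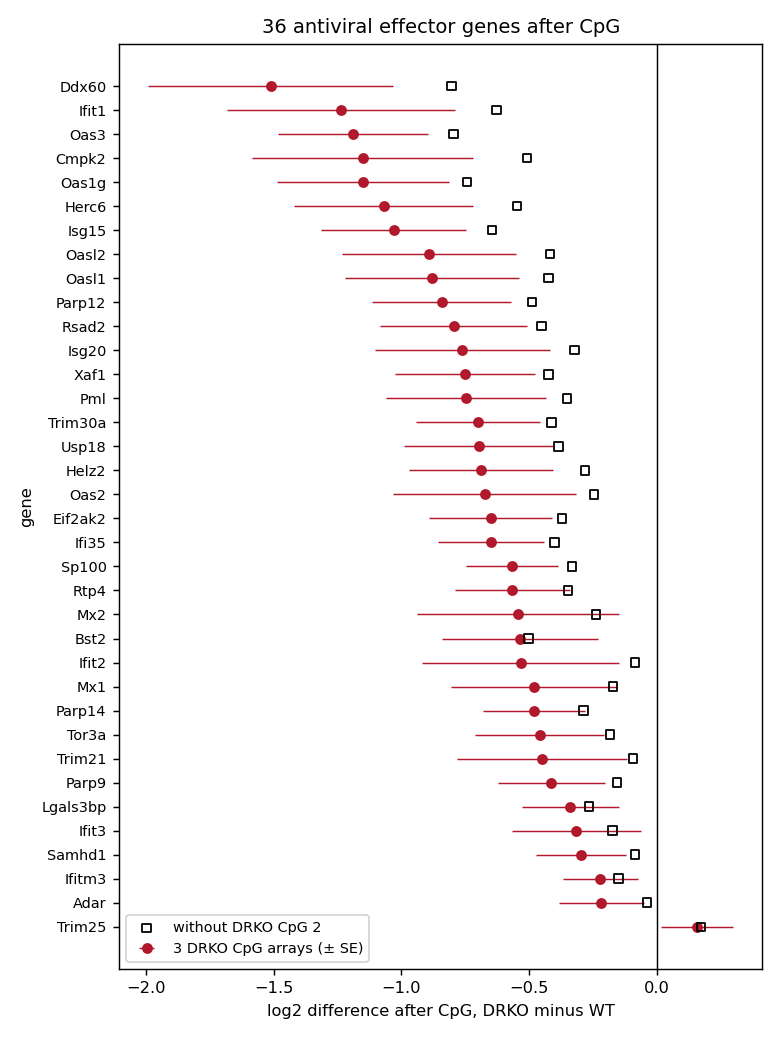
The x axis gives the log2 difference of DRKO minus WT after CpG for each of the 36 genes on the y axis, as filled circles with ± 1 standard error from all arrays and as open squares without DRKO CpG 2. Nearly all squares lie to the right of their circles, and only Trim25 is above 0 in both.

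Markers of other cells differed in this comparison, those of splenic macrophages mainly in DRKO CpG 3. All 11 neutrophil markers measured had lower means in DRKO cells after CpG, with a median difference of -1.76, and with their mean as a covariate the median difference of the antiviral genes was -1.07. All 12 splenic macrophage markers also had lower means, with a median of -0.42, and with their mean as a covariate the antiviral median was -0.72. Their mean level was 10.22 in DRKO CpG 1, 10.24 in DRKO CpG 2 and 8.44 in DRKO CpG 3. It was 9.98 to 10.18 in the WT CpG arrays. By limma 0 of the 12 had an unadjusted p under 0.05. The 9 plasmacytoid DC markers, of which Bst2 is also 1 of the 36, had differences from -0.54 (Bst2) to 0.71 (Ccr9) with a median of 0.05, 5 of them above 0. With the Y-linked mean as a covariate the antiviral median was -0.53. Without the 3 arrays carrying Y-linked signal, which left DRKO CpG 3 as the only DRKO CpG array, the antiviral median was -0.43. No WT array carried Y-linked signal, so sex and genotype could be separated only within the arrays without it. The neutrophil mean was 7.21 to 9.06 in WT arrays and 5.52 to 7.27 in DRKO arrays. The neutrophil markers also had median CpG changes of 0.68 in WT and 1.14 in DRKO cells. With 10 arrays this covariate cannot separate neutrophil content from genotype or stimulation. The part of other cells and of sex in the difference was not tested. Some genes passed the threshold under alternatives: Bst2 with the Y-linked covariate, and Isg15 and Parp12 without DRKO CpG 1. The fit without DRKO CpG 1 kept DRKO CpG 2, the lowest DRKO CpG array for 35 of the 36 genes.

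The difference between the genotypes' CpG changes passed the threshold for none of the 36. By limma 0 were called, where 0.00748% of all genes were called in either direction, and 0 had an unadjusted p under 0.05, where 2.33% of all genes had one and were lower in DRKO cells. The median difference of the changes was -0.43, and the lowest adjusted p was 0.871. The lowest differences were those of Ddx60 (-1.31 ± 0.76), Isg20 (-0.91 ± 0.54) and Oas2 (-0.84 ± 0.57). The highest were those of Trim25 (0.39 ± 0.22), Mx2 (0.03 ± 0.62) and Oasl1 (0.03 ± 0.54). The smallest p-values were those of Sp100 (-0.62 ± 0.29, unadjusted p = 0.0553, adjusted p = 0.871) and Ifi35 (-0.68 ± 0.33, unadjusted p = 0.0642, adjusted p = 0.879), both with the smaller change in DRKO cells. Without DRKO CpG 2 the median was -0.20 and 25 of the 36 were below 0.

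Array by array, most antiviral genes shared the same highest and lowest CpG array. The median over the 36 genes, taken from the mean of the unstimulated arrays of the same genotype, was 1.75, 1.75 and 2.25 in the 3 WT CpG arrays and 1.71, 0.60 and 1.67 in the 3 DRKO CpG arrays. WT CpG 3 was the highest WT CpG array for 34 genes and DRKO CpG 2 the lowest DRKO CpG array for 35, the exception being Bst2. In 7 of the 36, DRKO CpG 2 did not exceed the higher DRKO unstimulated array, against 1 gene for DRKO CpG 1 and 2 genes for DRKO CpG 3. The share over all genes was not computed for this count. WT CpG 3 was the highest of its group in 34.5% of all tested genes and in 49.1% of the 1071 other genes called higher by CpG in WT cells. DRKO CpG 2 was the lowest of its group in 29.1% of all tested genes and in 42.4% of those 1071. For 15 cytokine and maturation genes known to respond to CpG, chosen after the values were seen, it was the lowest in 5, and their medians were 2.42, 2.04 and 1.74 in DRKO CpG 1, 2 and 3. The medians of the 1071 other genes were 0.66, 0.51 and 0.56, also lowest in DRKO CpG 2. Il12b, a subunit of IL-12, measured 11.71, 11.37 and 10.98 in these 3 arrays, and Tnip3, an inhibitor of NF-kB signalling, 10.19, 10.68 and 9.77. The 5 genes lowest in DRKO CpG 2 were Cd40 (11.14, 10.76 and 10.98), Ccr7, Il2ra, Ccl17 and Nfkbia. All 15 of these genes were called higher in both genotypes, so a rise in DRKO CpG 2 was largely fixed by their choice. The reason why the antiviral genes were lowest in that array was not tested.

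**Figure D4:**
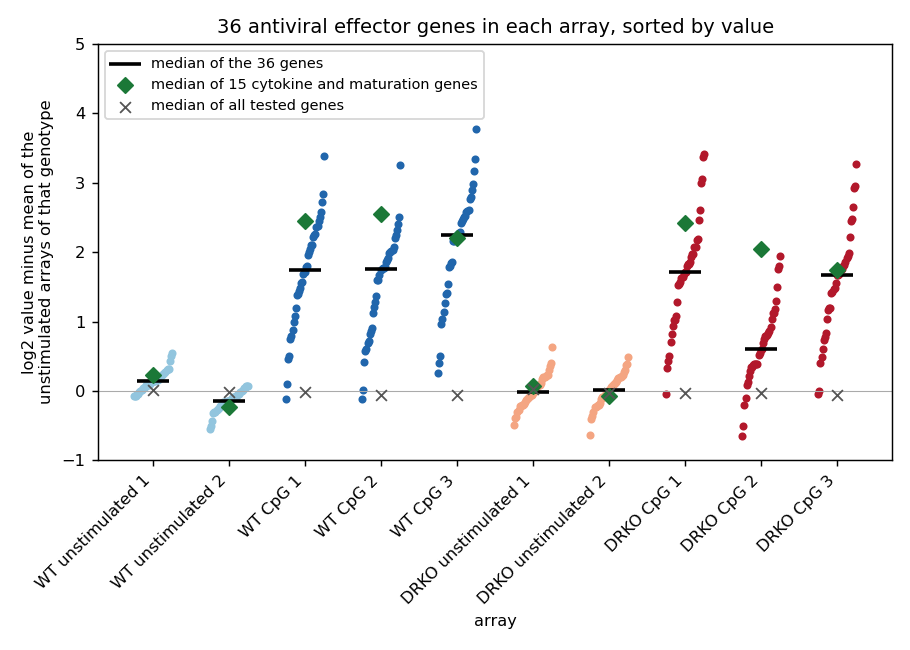
For each array on the x axis, dots give the 36 genes sorted by their log2 value minus the mean of the unstimulated arrays of that genotype. Black bars mark the medians of the 36 genes, green diamonds those of 15 cytokine and maturation genes and crosses those of all tested genes. In DRKO CpG 2 the black bar stands at 0.60 and the diamond, for genes chosen after the values were seen, at 2.04.

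Replicates of the antiviral genes spread unequally in the CpG groups. The median SD over the 36 genes was 0.27 in WT CpG and 0.57 in DRKO CpG (n = 3 each), beside 0.13 and 0.16 over all tested genes. In 30 of the 36 the SD was larger in DRKO CpG, a count whose share over all genes was not computed. The DRKO spread includes DRKO CpG 2, where the median change was 0.60, against 1.71 in DRKO CpG 1 and 1.67 in DRKO CpG 3. The SD without DRKO CpG 2 was not computed.

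The interferon pathway upstream was read from lists of ligands, receptors, factors, inhibitors and sensors. Of 8 ligands tested, 1 was called higher in WT cells and 0 in DRKO cells. That one, Ifnb1, which encodes interferon beta, measured 4.16 and 3.98 in the WT unstimulated arrays, 5.87, 5.74 and 4.55 after CpG, 3.90 and 3.96 in the DRKO unstimulated arrays and 5.60, 5.07 and 4.31 after CpG. It rose by 1.31 ± 0.40 in WT cells (adjusted p = 0.0405) and had a DRKO change of 1.06 ± 0.40 (adjusted p = 0.126). These levels lie around or below the array medians. By array Ifnb1 ran differently from the antiviral genes: WT CpG 3 and DRKO CpG 3 were the lowest CpG arrays of their genotypes, and DRKO CpG 2 was in the middle. Ifng, the type II interferon, had changes of 1.29 ± 0.53 (adjusted p = 0.114) and 0.66 ± 0.53 (adjusted p = 0.503). The alpha and lambda interferon genes tested were not called in either genotype.

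Of 9 receptor chains and kinases, 1 was called higher and 1 lower in WT cells, and 0 and 1 in DRKO cells. Ifngr1, a chain of the interferon gamma receptor, measured 11.19 and 11.41 and then 9.73, 9.59 and 9.67 after CpG in WT cells, and 11.49 and 11.47 and then 10.39, 10.82 and 10.70 in DRKO cells. It fell in both, by 1.64 ± 0.14 (adjusted p = 7.54e-05) and 0.85 ± 0.14 (adjusted p = 0.0054), and after CpG it was higher in DRKO cells by 0.97 ± 0.13 (adjusted p = 0.0225). Jak2 rose in WT cells by 0.72 ± 0.17 (adjusted p = 0.0128). The type I receptor chains had WT changes of -0.21 ± 0.15 for Ifnar1 and -0.43 ± 0.15 for Ifnar2, with adjusted p-values of 0.375 and 0.0638.

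Of 6 transcription factors tested, 4 were called higher and 1 lower in WT cells, and 1 and 1 in DRKO cells. Irf7, the factor that amplifies interferon production, measured 11.06, 10.91 and 11.44 in the WT CpG arrays against 9.38 and 9.13 before, and 10.83, 9.24 and 10.62 in the DRKO CpG arrays against 9.27 and 8.94. It rose by 1.88 ± 0.38 in WT cells (adjusted p = 0.00611), and its DRKO change of 1.12 ± 0.38 had an adjusted p of 0.0928. DRKO CpG 2 lay within the range of the DRKO unstimulated arrays. Stat2 measured 11.48, 10.20 and 10.94 in the DRKO CpG arrays and rose by 1.60 ± 0.30 in WT cells (adjusted p = 0.0042). Irf9 rose by 0.80 ± 0.17 (adjusted p = 0.00833) and Irf1 by 0.90 ± 0.19 (adjusted p = 0.0069) in WT cells, and Irf1 by 0.70 ± 0.19 in DRKO cells (adjusted p = 0.0416). Irf8, a factor of DC identity, fell by 1.32 ± 0.16 (adjusted p = 0.000404) and 0.91 ± 0.16 (adjusted p = 0.00751).

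Of 6 feedback inhibitors, which include Usp18, 4 were called higher in WT cells and 3 in DRKO cells, with 1 lower there. Socs1, the inhibitor of Jak kinases, rose by 1.23 ± 0.16 in WT cells (adjusted p = 0.000528) and had a DRKO change of 0.49 ± 0.16 (adjusted p = 0.0767). Socs3 rose in both, by 1.21 ± 0.35 (adjusted p = 0.0326) and 2.04 ± 0.35 (adjusted p = 0.00648), and of the DRKO CpG arrays DRKO CpG 2 was its highest, at 8.42. Of 11 sensors and adaptors, 6 were called higher and 2 lower in WT cells and 5 and 1 in DRKO cells. Zbp1, a sensor of Z-form nucleic acid, rose by 2.36 ± 0.37 (adjusted p = 0.00151) and 1.56 ± 0.37 (adjusted p = 0.0254), with 10.67, 9.11 and 10.45 in the DRKO CpG arrays. Ddx58 (RIG-I) rose by 2.03 ± 0.30 (adjusted p = 0.00107) and 1.43 ± 0.30 (adjusted p = 0.0152), and Ifih1 (MDA5) by 1.83 ± 0.27 (adjusted p = 0.00106) and 1.51 ± 0.27 (adjusted p = 0.00758). Myd88 rose by 0.91 ± 0.13 (adjusted p = 0.00107) and 0.78 ± 0.13 (adjusted p = 0.00648), and DRKO CpG 2 was level with DRKO CpG 1 there, at 10.85 and 10.88. Tlr3 fell by 2.54 ± 0.25 (adjusted p = 0.00016) and 2.17 ± 0.25 (adjusted p = 0.00098). The receptor for CpG, Tlr9, had changes of 0.43 ± 0.19 (adjusted p = 0.138) and 0.29 ± 0.19 (adjusted p = 0.375).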

How the data were processed

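The authors deposited 1 log2 intensity for each probe set and array, made with RMA (background correction, normalization to a common distribution and summary of the probes of each set) in Affymetrix Expression Console, per the submitters' processing notes. Versions of both tools, and the build behind the arrays' annotation, were not given in the sources used here. RMA forces arrays to near-equal distributions, so a shift shared by most genes would not be seen. The amplification text of the labels names a kit for a first batch of samples and the extraction text another protocol, and neither assigns a sample, so the numbers in the titles stood in for a batch.

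Of 41345 probe sets, 23521 had 1 gene symbol in the platform annotation, 1814 had several and 16010 had none, and the first covered 22180 genes. The filter kept the 13371 genes above the array median in 2 or more arrays. The 4 group means were estimated from all 10 arrays together with limma 3.58.1 in R 4.3.3 (lmFit, then eBayes without trend or robust), with two-sided tests and Benjamini-Hochberg adjustment over the 13371 genes within each of 5 contrasts. Ifi35 and Lgals3bp had 2 usable probe sets each and Sp100 had 4, and the brightest was taken. No detection calls were used, and the number of arrays limits the precision. Promoters came from a RefSeq table of build GRCm38.p6 and were matched by symbol.

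The 41 genes, the pathway and marker lists and the tests were chosen with earlier results of these data known. Levels in every array are given, per role, for the genes with the smallest p in WT cells, the smallest in DRKO cells and the largest in WT cells, and for the 3 lowest and 3 highest differences of the CpG changes. Alternatives were no filter, a filter in all 10 arrays, trend and robust fitting, quantile normalization, the mean of a gene's probe sets, the title series as a block or alone, Y-linked, neutrophil and (added after the data were seen) splenic macrophage levels as covariates, dropping the arrays with Y-linked signal, the 2 groups of a contrast alone, and each array left out. Plots used matplotlib 3.10.9 (Python 3.11.15).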

Additional observations from a re-analysis of the deposited data

How the results depend on the processing

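The 31 calls after CpG in WT cells were kept, or joined by 1 or 2 of Ifit3, Bst2 and Trim21, under every alternative tried that kept both WT unstimulated arrays and all 36 genes. Leaving out 1 array gave 23 to 32 calls there. The DRKO count of 24 became 11 in the first title series alone and 8 with the 2 DRKO groups alone, and leaving out 1 array gave 7 to 30. Shares over all genes are not given for these counts, so their changes are not shown to be particular to the antiviral genes. The cause of these changes was not tested beyond the smaller number of arrays. The median DRKO change was 1.09 to 1.66 with 1 array left out, the highest without DRKO CpG 2. Between genotypes without stimulation the median was -0.53 with the neutrophil covariate. Leaving out the arrays carrying Y-linked signal left a single array in each DRKO group, so calls between genotypes from that fit are not given. After CpG 1 gene was called lower with the Y-linked covariate and 0 to 2 with 1 array left out. The median there was -1.07 with the neutrophil covariate and -0.84 to -0.35 with 1 array left out. The difference of the CpG changes gave 0 calls under each alternative run. It could not be fitted with the 2 groups of a contrast alone. No named result reversed past the threshold, and over the single genes 130 values lost a call, 48 gained one and 130 changed sign without being called. No paired analysis was possible because the labels give the groups no shared replicate numbers. The ISRE count of 10 was 13 in the whole window and 12 with the 9-letter form GAAANNGAA, a spelling added after the data were seen.

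With 2 or 3 arrays a group, a CpG change had a standard error of up to 0.53 among the 36 genes, and differences of the CpG changes up to 0.76, so the smaller differences between genotypes could not be resolved.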
